A study of Mus musculus with 9 samples.

Results

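Fibroblast growth factor (FGF) ligands, their receptors and the genes that extracellular signal-regulated kinase (ERK) signalling switches on or that hold it back were examined across all 9 libraries of a study of Yap1 in mouse embryonic stem (ES) cells. The 37 genes are the rows of the deposited table named Fgf or Fgfr with a number, apart from 1 FGF gene that the choice left out, together with 14 named adaptors and feedback genes, out of 18504 genes in the table. They comprise 12 secreted ligands, 3 endocrine ligands, 4 intracellular FGF proteins, 4 receptors, 4 adaptors, 8 feedback inhibitors and 2 ETS transcription factors. Of the 37, 27 reached 1 FPKM (fragment numbers scaled to transcript length and library size) in at least 1 library. The other 10, Fgf1, Fgf2, Fgf7, Fgf9, Fgf10, Fgf12, Fgf14, Fgf16, Fgf21 and Fgf23, never exceeded 0.633 FPKM.

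FGF ligands bind receptor tyrosine kinases with heparan sulfate as a cofactor, and the active receptor recruits the docking protein Frs2, the adaptor Grb2, the phosphatase Ptpn11 (SHP2) and the exchange factor Sos1, which loads Ras and starts the Raf, MEK and ERK cascade. ERK in turn induces its own brakes, the Sprouty and Spred proteins that act on Ras and Raf and the dual-specificity phosphatases (Dusp), as well as the ETS factors Etv4 and Etv5. In mouse ES cells Fgf4 is the well-known autocrine ligand of this pathway, and ERK signalling is known for moving cells out of the naive pluripotent state.

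The cells were J1, a mouse ES cell line of strain 129S4/SvJae, at passage 5 to 7, and polyadenylated RNA was sequenced. The perturbed libraries, each with its labelled control, were Yap1_OE (Yap1 overexpression) with BirA, Yap1_KO1 and Yap1_KO2 (labelled knockouts) with ESC, Yap1_KD (knockdown) with Control, and dESC_Yap1_KD (knockdown in differentiated cells) with dESC_control. All 8 groups share the J1 background, and only the knockout group has more than 1 library. The sources used here do not say how Yap1 was edited, depleted or overexpressed, how cells were differentiated, or whether a line is 1 clone. BirA is known as a bacterial biotin ligase, and what the BirA cells carry beyond that name is not stated.

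Yap1 stood at 139 FPKM in Yap1_OE against 46.7 in BirA. It stood at 4.55 FPKM in Yap1_KD against 37.4 in Control, and at 12.5 in dESC_Yap1_KD against 78.0 in dESC_control. The libraries labelled Yap1_KO1 and Yap1_KO2 kept Yap1 RNA at 57.3 and 27.6 FPKM against 65.4 in ESC, so directions drawn from them are those of the labelled libraries, and a gene-level value does not show a small deletion. The value of Yap1_KO1 was above those of BirA and Control. The 5 ES cell markers summed to 1580 FPKM in dESC_Yap1_KD and 1162 in dESC_control, against 1910 to 2487 in the undifferentiated libraries, and Zfp42 ranged most, from 49.7 FPKM in dESC_control to 456 in Yap1_KD. The shallowest library was Yap1_KO1, with an estimated 9.13 M (mega) fragments, and the deepest was Control, with 22.2 M.

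Promoters are shown for 4 members: the most abundant ligand (Fgf4), the ligand furthest below its control in the knockout-labelled libraries (Fgf18), and a ligand and a feedback gene that hold a match to the core letters bound by TEAD, the DNA partner of Yap1 (Fgf3 and Spry1). Each line gives the 250 bases before the transcription start, 5′ to 3′ on the gene's own strand, from RefSeq on GRCm38.p6, with motif matches in capitals. The intervals are chr7:144861136-144861385 (plus strand) for Fgf4, chr11:33147401-33147650 (minus strand) for Fgf18, chr7:144838362-144838611 (plus strand) for Fgf3 and chr3:37639697-37639946 (plus strand) for Spry1.
Fgf4: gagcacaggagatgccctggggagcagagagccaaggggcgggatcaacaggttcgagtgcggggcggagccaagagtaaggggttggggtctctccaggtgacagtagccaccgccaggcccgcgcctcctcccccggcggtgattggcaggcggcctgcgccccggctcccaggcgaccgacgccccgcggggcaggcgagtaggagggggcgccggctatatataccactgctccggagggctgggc
Fgf18: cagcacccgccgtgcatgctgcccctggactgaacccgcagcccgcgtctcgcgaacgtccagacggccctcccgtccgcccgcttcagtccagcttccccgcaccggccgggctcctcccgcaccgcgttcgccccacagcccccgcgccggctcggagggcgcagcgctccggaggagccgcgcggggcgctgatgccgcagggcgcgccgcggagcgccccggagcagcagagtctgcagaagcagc
Fgf3: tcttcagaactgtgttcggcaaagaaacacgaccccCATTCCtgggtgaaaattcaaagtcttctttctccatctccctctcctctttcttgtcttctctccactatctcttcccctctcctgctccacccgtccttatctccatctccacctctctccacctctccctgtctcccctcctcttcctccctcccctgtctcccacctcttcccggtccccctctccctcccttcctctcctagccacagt
Spry1: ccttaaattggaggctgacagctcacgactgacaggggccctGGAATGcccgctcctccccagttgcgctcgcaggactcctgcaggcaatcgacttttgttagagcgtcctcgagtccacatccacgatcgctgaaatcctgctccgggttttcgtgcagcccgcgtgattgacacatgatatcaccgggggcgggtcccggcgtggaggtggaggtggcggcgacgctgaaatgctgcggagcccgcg

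Of the 37 members, 28 had a promoter in the RefSeq table, with 37 promoters between them. Fgf15 and Fgf17 had none. The TEAD letters GGAATG, searched on both strands, were found in 4 of these 37 promoters (1 each of Fgf3, Fgf11, Fgf12 and Spry1), and in 12.6% of all 32851 promoters of the same length. In Fgf3 the match began 214 bases before the start and lay in reverse orientation, and in Spry1 it began 208 bases before the start. The ETS letters CCGGAAGT were found in a promoter of 1 member, Frs2 (2.88% of all promoters), and the AP-1 letters TGANTCA in promoters of 2, Fgf12 and Fgf13 (6.75% of all). The Fgf4 and Fgf18 windows, with a GC content of 71.2% and 77.2%, hold none of the 3 motifs, which says only that these letters are not in these windows.

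Fgf4 was the most abundant ligand in the undifferentiated libraries. It stood at 69.5 FPKM in Yap1_OE against 81.6 in BirA, at 88.8 and 70.1 in Yap1_KO1 and Yap1_KO2 against 78.9 in ESC, and at 102 in Yap1_KD against 81.5 in Control. The lowest and highest of these 7 values belong to perturbed libraries, and the 3 controls lie between them. By limma, the log2 change of Fgf4 in the knockout-labelled pair was 0.00 (SE 0.17, adjusted p = 0.998 after Benjamini-Hochberg correction). Summed over the 15 secreted and endocrine ligands, Fgf4 made up between 61.2% (Yap1_OE) and 81.2% (Yap1_KO1) of the FPKM of undifferentiated libraries, 47.9% in dESC_Yap1_KD and 15.1% in dESC_control. The 1 FGF gene that the choice left out is not in these sums, so shares and ranks of ligands hold among the 15 only.

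**Figure D1:**
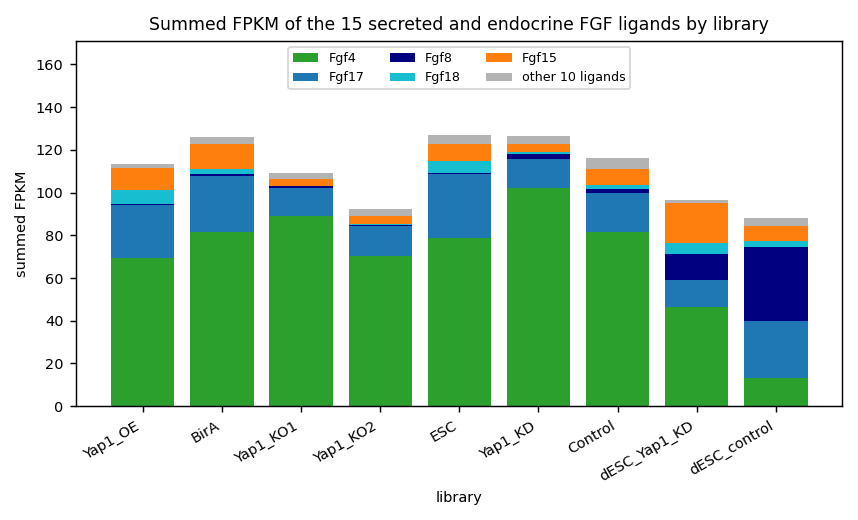
Summed FPKM (y axis) of the 15 secreted and endocrine FGF ligands in each of the 9 libraries (x axis, 1 bar a library), split by ligand. Fgf4 is the largest segment in all libraries except dESC_control, where Fgf8 (34.5 FPKM) and Fgf17 (26.7 FPKM) are larger than Fgf4 (13.4 FPKM).

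In the 7 undifferentiated libraries the second ligand was Fgf17, which with Fgf8 and Fgf18 forms the FGF8 subfamily. The third there was Fgf15, the mouse counterpart of human FGF19 and an endocrine regulator of bile acid synthesis in the adult gut. Fgfr1 was the main receptor, at 11.3 to 19.3 FPKM in the 7 undifferentiated libraries, and it made up 72.9% (Yap1_OE) to 95.8% (Yap1_KO2) of the summed receptor FPKM there. Fgfr2, Fgfr3 and Fgfr4 stayed under 1.5 FPKM in those libraries except for Fgfr2 in Yap1_OE. Among adaptors Grb2 was highest, at 36.3 to 69.1 FPKM over all 9 libraries, and Sos1 lowest, at 5.68 to 9.91. The feedback genes Spry2 and Spry4 and the ETS factors Etv4 and Etv5 were abundant in undifferentiated cells, with Etv5 at 42.2 to 103 FPKM.

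Several members not yet named were low in all libraries. Fgf3, which is known from inner ear development, was between 0.542 (dESC_control) and 2.51 FPKM (ESC), and Fgf11, an intracellular FGF, between 0.129 (Yap1_OE) and 1.48 (Control). Fgfr3 peaked at 1.05 FPKM in dESC_control and Fgfr4 at 1.27 in Control. Others were well expressed and varied between libraries. Ptpn11 was between 15.3 (Yap1_KD) and 50.2 FPKM (dESC_control), Frs2 between 6.79 (Yap1_KD) and 10.9 (Yap1_OE and Yap1_KO2), and Spry1 between 4.35 (Yap1_KD) and 13.98 (dESC_Yap1_KD). Exons of 10 members share bases with another annotated gene, among them Dusp5, Spry1 and Fgfr1 with a gene on the opposite strand (547, 577 and 164 bases).

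**Figure D2:**
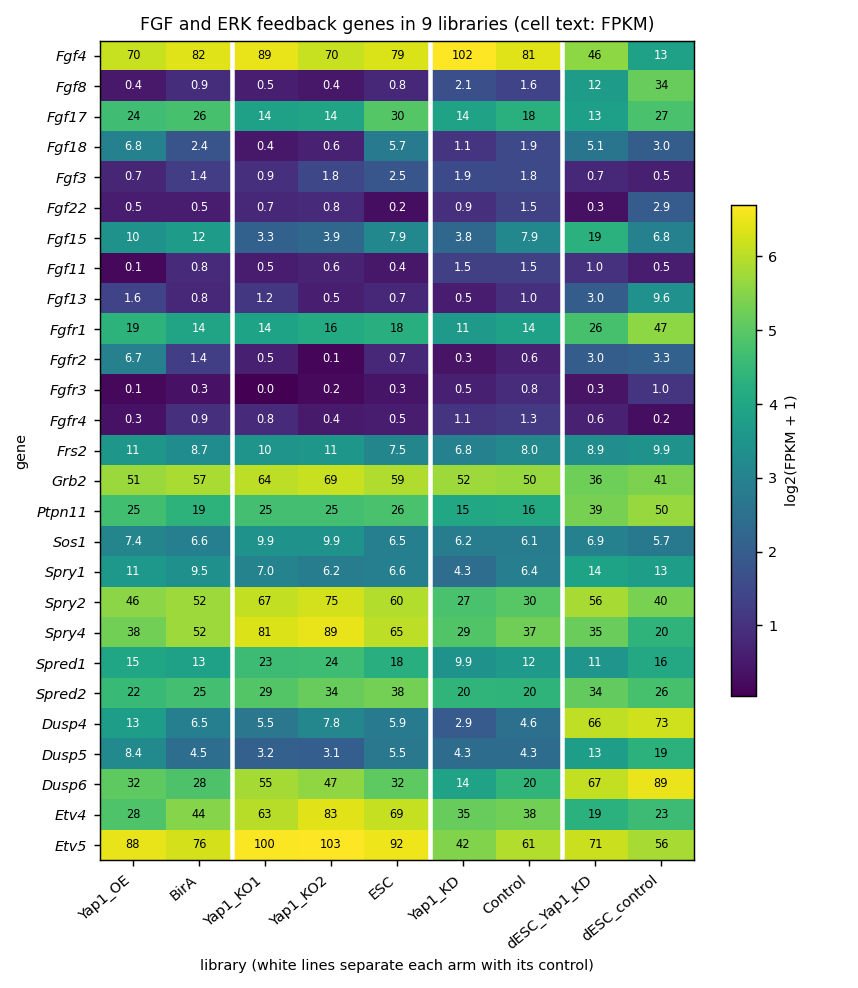
FPKM of the 27 genes that reached 1 FPKM in a library (rows) in the 9 libraries (columns), with colour on the log2(FPKM + 1) scale and the FPKM written in each cell. White lines separate each arm with its control, and Dusp4 stands out in the differentiated pair at 66.4 FPKM in dESC_Yap1_KD and 73.3 in dESC_control.

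Several of these genes differed between the 3 undifferentiated controls, which carry no labelled change of Yap1. Spry2 stood at 60.2 FPKM in ESC, 51.6 in BirA and 30.4 in Control, a 1.98-fold range. Etv4 ranged 1.80-fold, Spry4 1.76-fold, Spred2 1.96-fold and Fgf18 3.08-fold, while Fgf4 ranged 1.03-fold and Sos1 1.07-fold. Between Control and ESC, 1 of 24 members was at least 2-fold higher (Fgf22) and 1 lower (Fgf18), where 3.02% and 1.91% of all genes tested were. Fgf22 passed the 1 FPKM filter there only through Control, at 1.49 FPKM against 0.225 in ESC. Between BirA and ESC 0 of 21 members were at least 2-fold higher (1.14% of all genes) and 0 lower (0.686%), and between Control and BirA 0 of 25 were higher (1.23%) and 0 lower (0.409%).

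Yap1 overexpression was set against BirA, with 1 library on each side and so no replicate check and no p-value. Counts use log2(FPKM + 1) and genes that reached 1 FPKM on either side. Of 22 members tested, 2 were at least 2-fold higher in Yap1_OE, Fgfr2 and Fgf18, where 1.6% of all genes were, and 0 were at least 2-fold lower (2.35% of all genes). The median log2 ratio of the 22 was 0.17, against 0.019 over all genes tested. Between undifferentiated controls the member medians were -0.22 (BirA over ESC), -0.31 (Control over ESC) and -0.19 (Control over BirA).

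Fgfr2, the receptor best known from trophoblast and epithelia, stood at 6.74 FPKM in Yap1_OE against 1.40 in BirA, a 4.80-fold difference. The other undifferentiated controls had 0.747 (ESC) and 0.562 FPKM (Control), so the overexpression library lay above all of them. Annotated exons of Fgfr2 share 210 bases with Ctbp2 on the same strand, and reads there cannot be assigned by position. Fgf18, a ligand of skeletal and lung development, stood at 6.84 FPKM in Yap1_OE against 2.41 in BirA, which is 2.83-fold, but ESC had 5.71 FPKM. Its level in the overexpression library is thus close to that of another unperturbed control.

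The phosphatases Dusp4 and Dusp5, of which Dusp5 is nuclear and specific for ERK, stood at 12.6 and 8.39 FPKM in Yap1_OE against 6.54 and 4.47 in BirA. These were 1.93-fold and 1.88-fold differences, under 2-fold, and both lay above all 3 undifferentiated controls. Etv4 was lower, at 28.3 FPKM in Yap1_OE against 43.6 in BirA, and Spry4 was at 37.8 against 52.4. By the range of the 3 undifferentiated controls, 10 of 26 members lay above it in Yap1_OE and 6 below it. Of all genes, 27.9% lay above it and 26% below it, and the member counts are not read as a difference from these shares. Fgf13, among those above, passed the 1 FPKM filter only through Yap1_OE (1.60 FPKM). Fgf8, Fgf11 and Fgfr4, among those below, passed only through Control (1.58, 1.48 and 1.27 FPKM). The 5 trophoblast markers summed to 199 FPKM in Yap1_OE against 25.3 in BirA, mainly the keratins Krt8 and Krt18, with Cdx2 at 0.970 against 0.0331 FPKM and Elf5 listed at 0 in Yap1_OE. Their part in the Fgfr2 difference was not tested, and in bulk RNA a change in the share of cells cannot be told apart from a change per cell.

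**Figure D3:**
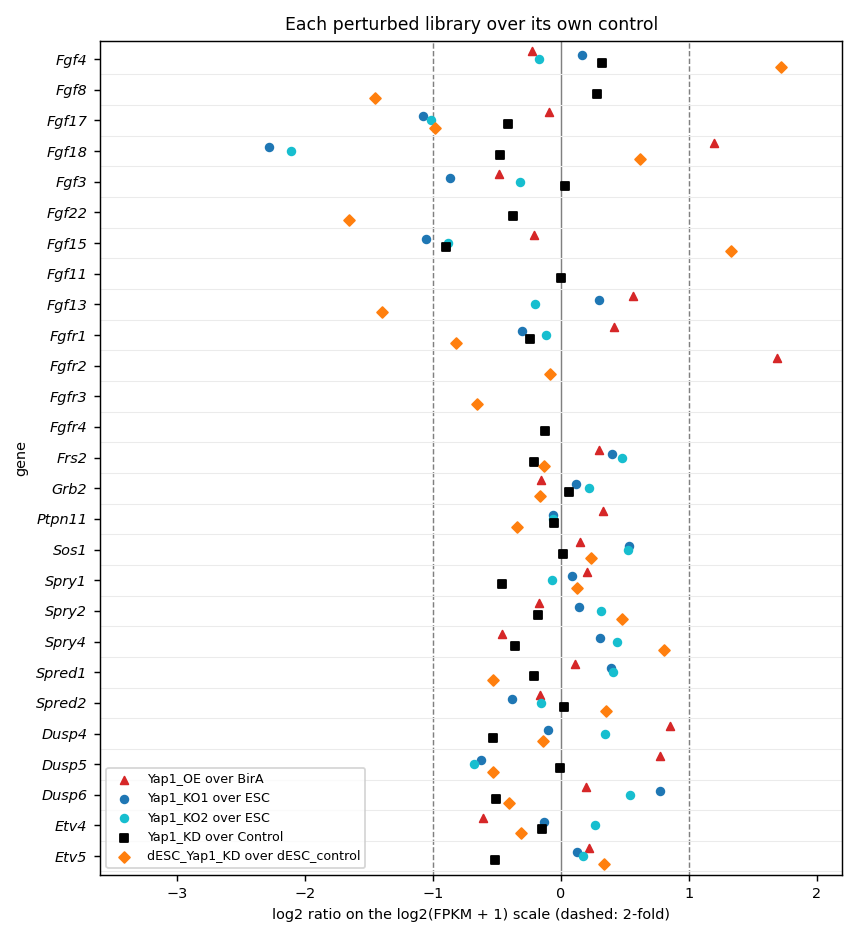
Log2 ratio on the log2(FPKM + 1) scale (x axis) of each perturbed library over its own control for the 27 genes (y axis), shown where a gene passed 1 FPKM in the compared libraries. Dashed lines mark 2-fold; Fgf17, Fgf18 and Fgf15 lie to the left for Yap1_KO1, Yap1_KO2 and Yap1_KD, while Fgf15 lies to the right for dESC_Yap1_KD.

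In the libraries labelled Yap1_KO1 and Yap1_KO2, 3 ligands stood furthest from ESC. Fgf18 was at 0.382 and 0.558 FPKM against 5.71 in ESC, or 6.69% and 9.77% of the control, which corresponds to about 4 and 8 fragments against about 91. Fgf17 was at 13.5 and 14.2 FPKM against 29.7, and Fgf15 at 3.31 and 3.85 against 7.92. Fgf18 passed the 1 FPKM filter here only through ESC. Both knockout-labelled libraries lay below the control for each of these ligands, and the pair differed little from each other. ESC had the highest Fgf17 and Fgf18 of the 3 undifferentiated controls.

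By limma across 11538 genes, Fgf18 had a log2 change of -2.19 (SE 0.21, Benjamini-Hochberg adjusted p = 0.119), Fgf17 of -1.04 (SE 0.11, adjusted p = 0.146) and Fgf15 of -0.96 (SE 0.16, adjusted p = 0.151). None of the 21 members tested passed the threshold of 0.05 by limma, where 0.0173% of all genes were called higher and 0.156% lower. At an unadjusted p under 0.05 there were 5 members higher and 4 lower by limma, where 23.1% of all genes had one. With small RNA rows left out, limma called 2 members lower, Fgf18 (adjusted p = 0.0319) and Fgf17 (adjusted p = 0.0436), where 0.332% of all genes were called lower, 0.0874% higher and 25.8% had an unadjusted p under 0.05. Fgf15 then had an adjusted p of 0.0692. The fit has 1 residual degree of freedom and 1 control library, which is assumed to vary like the pair. By the 2-fold rule in both libraries, 2 of 21 members were lower, Fgf17 and Fgf18 (0.979% of all genes), and 0 were higher (0.191%).

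Among the inhibitors, Dusp6, the cytoplasmic phosphatase of ERK, was above its control in the pair at 55.4 and 47.1 FPKM against 32.0 in ESC. Its log2 change was 0.66 (SE 0.14, limma adjusted p = 0.151). Spry4 was at 80.9 and 88.6 FPKM against 65.2, and Spred1, which brings the Ras inhibitor neurofibromin to the membrane, at 23.5 and 23.7 against 17.6. Dusp5 was below ESC, at 3.22 and 3.06 FPKM against 5.48. Sos1 and Frs2, at 9.91 and 9.87 FPKM against 6.54 and at 10.3 and 10.9 against 7.53, were above it. None of these passed the adjusted threshold in limma, with adjusted p between 0.151 (Dusp6) and 0.179 (Frs2 and Spry4).

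Log2 ratios of both knockout-labelled libraries over ESC followed the GC content of transcripts (Spearman rho -0.614 over 8033 genes and -0.622 over 8026 genes, a description across genes, which are not independent). Weaker trends were present in the other comparisons, from -0.353 (Control over ESC) to 0.272 (dESC_control over Control), with 0.197 for Yap1_KD over Control. The GC trend was removed only in limma fits, so ratios of single libraries keep it. Sos1, Spred1 and Frs2 have transcripts of 41.0%, 41.2% and 45.1% GC. With the GC trend removed their log2 changes were 0.22, 0.093 and 0.28, against 0.53, 0.40 and 0.44 without that step. The members with an unadjusted p under 0.05 by limma were then 2 higher (Dusp6 and Spry4) and 4 lower, where 13.1% of all genes had one. The log2 changes of Fgf18 (-1.999), Fgf17 (-0.81), Fgf15 (-0.93), Dusp6 (0.63) and Spry4 (0.43) moved by less than 1.5 times, but that of Fgf17 then fell short of 2-fold. By limma no member passed the adjusted threshold with the GC trend removed. The fit without small RNA rows was not corrected for GC.

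The knockdown in undifferentiated cells, with Yap1 at 12.2% of Control, gave 0 of 24 members at least 2-fold higher and 0 lower, where 0.506% of all genes were on each side. The same 3 ligands were below the control. Fgf15 stood at 3.80 FPKM in Yap1_KD against 7.93 in Control, or 47.9%. Fgf17 stood at 13.6 against 18.4 FPKM, and Fgf18 at 1.05 against 1.86. Among the feedback and ETS genes Dusp6 was at 13.8 FPKM against 20.05, Spry4 at 28.7 against 37.0, Dusp4 at 2.88 against 4.60, and Etv5 at 42.2 against 60.7. Of the 24 members tested 18 were below Control and 6 above it, with a median log2 ratio of -0.19 against 0.0092 over all genes. Controls without a labelled change of Yap1 differed as much from each other. In Control over BirA 20 of 25 members were below 0 (median -0.19, against -0.016 over all genes). In Control over ESC 17 of 24 were (median -0.31, against -0.011), and in BirA over ESC 14 of 21 (median -0.22, against -0.016).

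The libraries labelled Yap1_KO1, Yap1_KO2 and Yap1_KD were also set together against the 3 undifferentiated controls, although Yap1 in Yap1_KO1 (57.3 FPKM) exceeded that in BirA and Control. The levels of Fgf15, Fgf17 and Fgf18 did not overlap between these groups. Fgf15 was 3.31, 3.85 and 3.80 FPKM in Yap1_KO1, Yap1_KO2 and Yap1_KD, against 7.92, 11.8 and 7.93 in ESC, BirA and Control. Fgf17 was 13.5, 14.2 and 13.6 FPKM in the 3 labelled libraries against 29.7, 26.2 and 18.4 in the 3 controls, and Fgf18 was 0.382, 0.558 and 1.05 against 5.71, 2.41 and 1.86. In all, 5 of 26 members lay below the range of the 3 controls in all 3 labelled libraries, where 4.4% of all genes did, and 0 of 26 lay above it (4.59% of all genes). Without Yap1_KO1, 6 lay below it (5.72% of all genes). Beside the 3 ligands the 5 included Fgfr2, at most 0.530 FPKM in the labelled libraries and tested only through the 1.40 FPKM of BirA, and Dusp5, where Yap1_KD and Control were nearly equal at 4.28 and 4.29 FPKM.

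**Figure D4:**
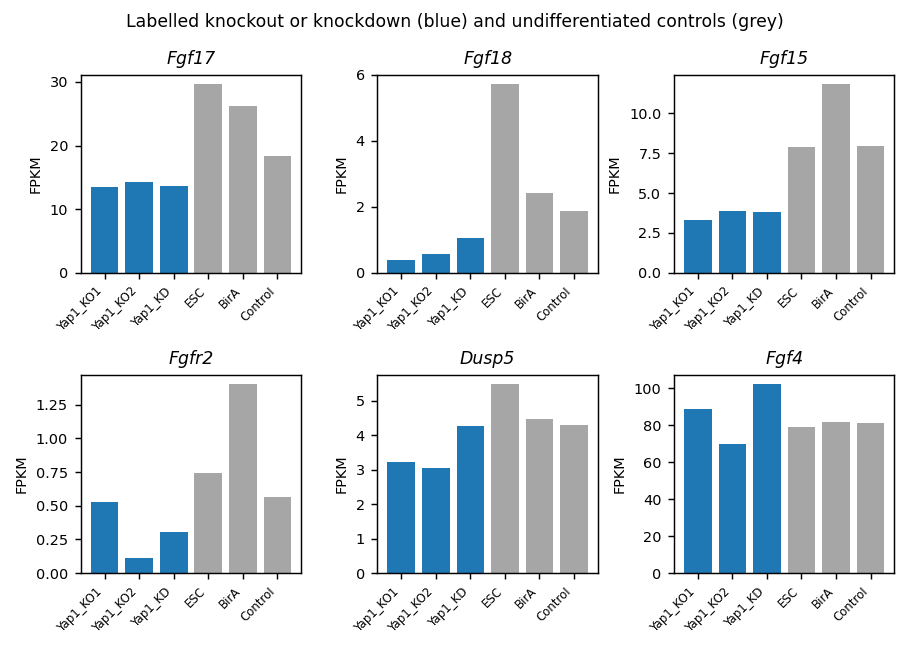
FPKM (y axis, from 0) of 6 genes in the libraries labelled Yap1_KO1, Yap1_KO2 and Yap1_KD (blue) and the 3 undifferentiated controls (grey), 1 bar a library. The blue bars are lower than all grey bars for Fgf17, Fgf18, Fgf15 and Fgfr2, narrowly so for Dusp5 (4.28 FPKM in Yap1_KD against 4.29 in Control), and overlap them for Fgf4.

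In the joint limma fit of the knockout-labelled and knockdown arms (12128 genes, 2 residual degrees of freedom), Fgf15 had a log2 change of -0.94 (SE 0.15, adjusted p = 0.362), Fgf17 of -0.77 (SE 0.17, adjusted p = 0.576) and Fgf18 of -1.46 (SE 0.38, adjusted p = 0.660). By limma 0 of 25 members passed, with 0 higher and 3 lower at an unadjusted p under 0.05, where 6.75% of all genes had one 0% were called higher and 0.0165% lower. With small RNA rows left out 0 of 25 members passed by limma, again with 0 higher and 3 lower at an unadjusted p under 0.05 (7.64% of all genes), where 0.00834% of all genes were called higher and 0.025% lower. Fgf15 had its lowest adjusted p over the alternatives there, 0.118. Fgf15 had about the same shift in both arms, with a difference of -0.069 (SE 0.23) for the knockout arm minus the knockdown arm. Fgf18 and Fgf17 did not, with differences of -1.72 (SE 0.25) and -0.64 (SE 0.16). Their joint changes thus average a larger shift in the knockout-labelled arm and a smaller one in the knockdown. With the GC trend removed the differences were -1.48 (SE 0.29) for Fgf18 and -0.36 (SE 0.18) for Fgf17. Overlapping antisense transcripts are annotated at Fgf15 (375 bases shared with Gm26793), and the counting is not stated to use strand.

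Several feedback and ETS genes pointed opposite ways in the 2 arms, above ESC in the knockout-labelled pair and below Control in the knockdown. The log2 change in the knockout arm minus that in the knockdown arm was 1.17 for Dusp6 (SE 0.22), 0.73 for Spry4 (SE 0.16), 0.67 for Etv5 (SE 0.12) and 0.61 for Spred1 (SE 0.15). Each had an adjusted p of 0.345 by limma, in a contrast chosen after these opposite directions were seen. It has 1 residual degree of freedom, from Yap1_KO1 and Yap1_KO2 alone, and the single Yap1_KD and Control libraries are assumed to vary alike. With the GC trend removed, also chosen after seeing the data, the difference was 1.15 for Dusp6 (SE 0.22), 0.81 for Spry4 (SE 0.17) and 0.77 for Etv5 (SE 0.15), but 0.24 for Spred1 (SE 0.18), and 6 members had an unadjusted p under 0.05 by limma, where 9.03% of all genes had one. By limma, 9 of 25 members had an unadjusted p under 0.05 for this contrast, where 14.4% of all genes had one and 0.272% were called after adjustment. Without the Yap1_KD library 8 of the members tested lay above the range of the 3 controls in both knockout-labelled libraries, where 23.8% of all genes did, against 0 with it.

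Knockdown in differentiated cells was set against dESC_control, 1 library each. Of 24 members tested, 2 were at least 2-fold higher, Fgf4 and Fgf15 (1.71% of all genes), and 3 at least 2-fold lower, Fgf8, Fgf13 and Fgf22 (4.77% of all genes). Fgf4 stood at 46.2 FPKM in dESC_Yap1_KD against 13.4 in dESC_control, a 3.46-fold difference. Fgf15 stood at 18.7 against 6.84 FPKM, which is 2.73-fold. The dESC_Yap1_KD value of Fgf15 was the highest of all 9 libraries.

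Fgf8, the ligand of the primitive streak that mesoderm formation depends on in the mouse embryo, stood at 12.0 FPKM in dESC_Yap1_KD against 34.5 in dESC_control, or 34.8%. Fgf13, an intracellular FGF that binds sodium channels and microtubules, stood at 3.02 against 9.57 FPKM. Fgf22, a synaptic organiser in the brain, stood at 0.254 against 2.94 FPKM, about 7 against about 122 fragments. It passed the 1 FPKM filter here only through dESC_control. Its exons share 82 bases with Rnf126 on the other strand. Fgf17 was at 13.1 against 26.7 FPKM, with a log2 ratio of -0.98 that falls just short of 2-fold, whereas Fgf18 was on the other side at 5.14 against 2.996. The FGF8 subfamily together made up 31.3% of the summed FPKM of the 15 ligands in dESC_Yap1_KD and 72.7% in dESC_control.

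Downstream of the ligands, Fgfr1 stood at 26.2 FPKM in dESC_Yap1_KD against 46.9 in dESC_control, or 55.9%, and Fgfr2 at 3.04 against 3.28. Dusp6 was at 67.2 against 89.3 FPKM, Dusp5 at 12.8 against 18.9 and Dusp4 at 66.4 against 73.3. The Sprouty genes lay the other way, with Spry4 at 35.04 against 19.6 FPKM and Spry2 at 56.0 against 39.9. The summed FPKM of the 8 feedback genes came to 295.6 in dESC_Yap1_KD and 295.5 in dESC_control. The sum was nearly equal while its parts lay on both sides.

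Cell type markers also differed between dESC_Yap1_KD and dESC_control. The 6 primitive streak and mesoderm markers summed to 35.3 FPKM in dESC_Yap1_KD against 111 in dESC_control, with T (brachyury) at 20.0 against 70.7. The 5 trophoblast markers summed to 179 against 1353 FPKM, mainly the keratins Krt18 (102 against 832) and Krt8 (65.3 against 486). Hand1 was at 7.97 against 27.1 FPKM and Cdx2 at 3.97 against 6.87, while Elf5 was near 0 at 0.0743 against 0.0507. The 4 neuroectoderm markers summed to 29.6 against 50.7 FPKM, mainly Nes (28.6 against 50.1), while Pax6 was at 0.665 against 0.168. The 5 endoderm markers were low, with sums of 2.16 against 2.71 FPKM. The 5 ES cell markers summed to 1580 against 1162 FPKM, with Esrrb at 86.9 against 30.3. Their part in the Fgf4, Fgf8 and Fgfr1 differences was not tested. Feeder fibroblast markers summed to 8.99 against 10.1 FPKM, with Thy1 at 8.21 against 3.40, Col1a1 at 0.444 against 5.73 and Lum at 0.0382 FPKM in dESC_Yap1_KD and listed at 0 in dESC_control.

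**Figure D5:**
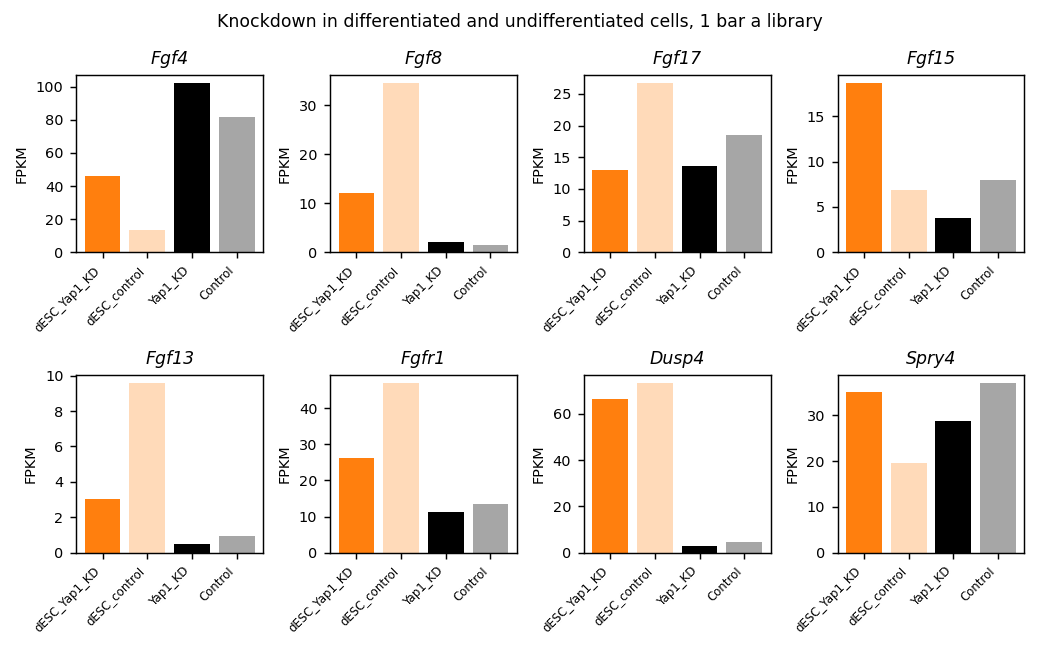
FPKM (y axis, from 0) of 8 genes in dESC_Yap1_KD, dESC_control, Yap1_KD and Control (x axis), 1 bar a library. Fgf15 is higher in dESC_Yap1_KD (18.7 FPKM) than in dESC_control (6.84) but lower in Yap1_KD (3.80) than in Control (7.93), and Dusp4 stands at 66.4 FPKM in dESC_Yap1_KD and 73.3 in dESC_control.

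Differentiated and undifferentiated cells were compared with and without the knockdown. The labels do not pair these libraries, and the comparison of dESC_control with Control shares a library with each knockdown comparison. Without knockdown, 8 of 27 members were at least 2-fold higher in dESC_control than in Control (13.1% of all genes) and 1 was at least 2-fold lower (10.1%). With knockdown, 12 of 25 were higher in dESC_Yap1_KD than in Yap1_KD (10.3%) and 1 lower (10.4%). Median log2 ratios were 0.40 without and 0.73 with knockdown, against 0.040 and 0.0035 over all genes.

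The ERK phosphatases were far higher in differentiated cells. Dusp4, an inducible nuclear ERK phosphatase, stood at 73.3 FPKM in dESC_control against 4.60 in Control, a 15.9-fold difference, and at 66.4 in dESC_Yap1_KD against 2.88 in Yap1_KD, which is 23.1-fold. Dusp6 was 4.45-fold and 4.88-fold higher, and Dusp5 4.40-fold and 2.99-fold. Dusp4 alone made up 22.5% of the feedback FPKM in dESC_Yap1_KD and 24.8% in dESC_control, but at most 6.83% in undifferentiated libraries.

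Of the ligands that passed the 1 FPKM filter, Fgf8 had the widest difference by fold. It stood at 34.5 FPKM in dESC_control against 1.58 in Control (21.8-fold) and at 12.0 in dESC_Yap1_KD against 2.14 in Yap1_KD (5.59-fold). Fgf4 lay the other way, with 13.4 against 81.5 FPKM without knockdown and 46.2 against 102 with it. Fgf13 was 10.1-fold higher without and 6.54-fold higher with knockdown, where Yap1_KD had 0.461 FPKM. Fgf13 and Fgfr2 passed the 1 FPKM filter in both comparisons only through the differentiated library. Fgfr1 was 3.46-fold and 2.32-fold higher, and Ptpn11 3.16-fold and 2.57-fold. Fgf15 in dESC_control was at 86.2% of Control, and in dESC_Yap1_KD it was 4.91-fold above Yap1_KD. Etv4 was at 61.1% of Control in dESC_control and at 54.1% of Yap1_KD in dESC_Yap1_KD. Spry4 was at 53.0% of Control in dESC_control but 1.22-fold above Yap1_KD in dESC_Yap1_KD. By the range of the 3 undifferentiated controls, 10 of 27 members lay above it and 5 below it in both differentiated libraries. Of all genes, 29.2% lay above it and 27.5% below it, and the member counts are not read as a difference from these shares. Fgf13 was tested there only through the differentiated libraries.

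The other genes of the pathway were examined by list. Of 17 measured genes of the core cascade (Ras, Raf, MEK, ERK, their adaptors and S6 kinases), 0 were at least 2-fold from the control in the overexpression, knockout-labelled, knockdown or differentiated knockdown comparisons. Of all genes, 0.191% to 4.77% were on a side in these comparisons, so 0 of 17 is near that share. By limma 0 of the 17 passed in the knockout fit, with 3 higher and 1 lower at an unadjusted p under 0.05, where 23.1% of all genes had one. In dESC_control over Control 1 of the 17 was at least 2-fold higher and 1 lower, where 13.1% and 10.1% of all genes were. Map2k2 (MEK2) was higher, at 68.2 against 33.4 FPKM, and Frs3, the sister docking protein of Frs2, lower, at 1.96 against 5.48.

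Of 14 other feedback regulators, 0 were at least 2-fold from the control in Yap1_OE. In the knockout-labelled and knockdown comparisons of undifferentiated cells 0 of 13 tested were. Of all genes, 0.191% to 2.35% were on a side there. By limma 0 of 13 passed in the knockout fit (3 higher and 1 lower at an unadjusted p under 0.05, against 23.1% of all genes). In dESC_Yap1_KD over dESC_control 3 of 14 were at least 2-fold lower and 0 higher, where 4.77% and 1.71% of all genes were. They were Dusp14, at 6.81 against 39.2 FPKM, Dusp9, a phosphatase known from ES cells and placenta, at 79.3 against 203, and Errfi1, an inhibitor of the EGF receptor, at 12.7 against 27.7. In dESC_control over Control 8 of the 14 were at least 2-fold higher (13.1% of all genes), and in dESC_Yap1_KD over Yap1_KD 4 were (10.3%), among them Dusp7 (17.2 against 3.79 FPKM) and Il17rd (9.82 against 3.36).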

How the data were processed

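Each of the 9 columns was matched to a sample, and its group, through the sample titles. The authors deposited 1 table of gene-level values, taken as FPKM because the submitters' processing notes name Cuffdiff with TopHat2 and build mm9. The sources used here give no annotation, tool version, strandedness or read length. Cuffdiff scales libraries against each other and estimates by likelihood, so a value of 0 can be a failed estimate.

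Of 23277 rows, 4746 blank and 27 date-like rows were left out; 173 rows are small RNAs by RefSeq biotype or symbol. Depth was estimated from the steps between low FPKM values (233 long single-transcript genes; quartiles of 9.66 and 14.8 M fragments for BirA), so fragment numbers are approximate, use the longest GENCODE M21 transcript and cover counting error only.

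Log2 ratios used log2(FPKM + 1) and genes that reached 1 FPKM on either side, which understates changes of low genes. Folds and percentages of single genes are FPKM ratios. Tests used limma 3.58.1 with a mean-variance trend (R 4.3.3) and Benjamini-Hochberg adjustment at 0.05 over all genes. The code was first run on simulated data, with noise in every library drawn from the spread of Yap1_KO1 and Yap1_KO2. That run could not show whether a single control varies like the pair. The joint fit had an arm term. Nothing says that Yap1_KO1 and Yap1_KO2 are separate cultures or clones, so the p-values reflect the spread between these libraries alone, and that spread may be technical. With 2 libraries against 1 an exact permutation test cannot reach 0.05.

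The members, lists and tests were chosen with earlier results of these data known. Every member is described; of the other lists, genes at 5 FPKM or more and at least 2-fold from a control were named, up to 4 a comparison. Alternatives were pseudocounts of 0.1 and 5, no filter or 5 FPKM, median centring, other controls, omission of small RNAs, GC correction and omission of single libraries. GRCm38 served for lengths, GC content, exon overlaps and promoters only.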

Additional observations from a re-analysis of the deposited data

Results flagged for a closer look

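Fgf15 differed in direction between the knockdown in undifferentiated and in differentiated cells, by at least 1.5-fold on each side. Its log2 ratio was -0.90 for Yap1_KD over Control (3.80 against 7.93 FPKM) and 1.33 for dESC_Yap1_KD over dESC_control (18.7 against 6.84 FPKM), with 1 library in each group. The difference was not tested, since no group here has a second library. About 123 fragments in Yap1_KD and 318 in Control, and about 440 in dESC_Yap1_KD and 236 in dESC_control, stand behind these values.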

How the results depend on the processing

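No paired analysis was possible because the groups compared share fewer than 2 replicate numbers. Over all counts and alternatives, 125 counts stayed within 1.5 times of the reported count and 21 did not, and no value changed sign past its threshold. This rule compares counts only, so a count can stay the same while its members change. Among values other than these counts, 210 were classed as moved, 968 as the same and 2 as stronger. With a pseudocount of 5, members at least 2-fold higher in Yap1_OE than BirA numbered 0, those lower in both knockout-labelled libraries 0, those higher and lower in dESC_Yap1_KD than dESC_control 1 and 1, those higher in dESC_Yap1_KD than Yap1_KD 6, and those higher and lower in Control than ESC 0 and 0. With a pseudocount of 0.1 the count lower was 1 for Yap1_KD over Control, 5 for dESC_Yap1_KD over dESC_control, 4 for dESC_control over Control, 2 for dESC_Yap1_KD over Yap1_KD and 1 for BirA over ESC. It gave 3 higher for Control over ESC, and 1 higher and 1 lower for Control over BirA. A larger pseudocount shrinks ratios of low genes by construction.

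With the mean of ESC, BirA and Control as control 1 member was at least 2-fold lower in Yap1_KD, where 0.904% of all genes were. With median centring 2 were lower in dESC_control than Control, and with a 5 FPKM filter 0 were higher in Control than ESC. Without small RNA rows limma called 2 members lower in the knockout-labelled libraries. Members above the 3 controls in the libraries labelled Yap1_KO1, Yap1_KO2 and Yap1_KD numbered 0 without Yap1_KO1, 1 without Yap1_KO2 and 8 without Yap1_KD, against 0 with all 3; those below numbered 4 to 6 when any 1 library was left out, where 5.51% of all genes lay below without BirA, 11.2% without Control and 20% without Yap1_KD, so that 6 of the members there is near the share of all genes, alternatives chosen after seeing the data. Leaving out 1 knockout-labelled library leaves no residual degrees of freedom in the knockout fit, so it gives a value and no test. In the joint fit limma called 0 members without either of them, with 0 higher and 3 lower at an unadjusted p under 0.05. At these depths Fgf18 rests on about 4 and 8 fragments in Yap1_KO1 and Yap1_KO2. The cause of these shifts was otherwise not tested.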

Other observations

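Among 23 genes for FGF coreceptors, FGF-binding proteins and heparan sulfate, 18 were tested in Yap1_OE over BirA and 2 were at least 2-fold higher, where 1.6% of all genes were. Fgfbp1, which releases FGFs from the matrix, stood at 9.02 FPKM in Yap1_OE against 1.69 in BirA, and the heparan sulfate proteoglycan Gpc4 at 25.1 against 10.8. In dESC_Yap1_KD over dESC_control 4 of 19 were at least 2-fold lower and 0 higher, where 4.77% and 1.71% of all genes were. Perlecan (Hspg2) stood at 19.9 FPKM in dESC_Yap1_KD against 54.3 in dESC_control, Gpc4 at 11.2 against 28.8 and the syndecan Sdc3 at 2.35 against 5.99. In dESC_control over Control 9 of 19 were at least 2-fold higher (13.1% of all genes), among them Gpc1 at 49.8 against 10.4 FPKM. By limma 0 of 18 passed in the knockout fit, with 1 higher and 5 lower at an unadjusted p under 0.05, where 23.1% of all genes had one.

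Of the ERK immediate-early genes, 3 of 11 were at least 2-fold lower in dESC_Yap1_KD than in dESC_control and 0 higher, where 4.77% and 1.71% of all genes were. Ier3 stood at 3.63 against 22.4 FPKM, Phlda1 at 11.1 against 37.9 and the ephrin receptor Epha2 at 38.3 against 86.9. In Yap1_OE over BirA 1 of 10, Ier3, was at least 2-fold lower, where 2.35% of all genes were (9.35 against 32.7 FPKM), but ESC had 4.60 FPKM and Control 19.3, so controls alone span that range. Myc also differed between controls, at 49.8 FPKM in ESC, 19.1 in BirA and 9.97 in Control. By limma 0 of 10 passed in the knockout fit, with 1 higher and 1 lower at an unadjusted p under 0.05, where 23.1% of all genes had one.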
